A study of Mus musculus with 13 samples.

Results

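The genes described here are 10 members of the Notch pathway. They are the receptors *Notch1*, *Notch2*, *Notch3* and *Notch4*, the ligands *Jag1*, *Jag2* and *Dll4*, and the target genes *Hes1*, *Hey1* and *Heyl*. They were taken by symbol from a table of 35967 gene symbols, and all 10 were among the 14322 genes tested, those with at least 1 TPM in at least 4 libraries. TPM measures transcript abundance, corrected for transcript length and rescaled to a common total in each library, so that levels can also be set side by side between genes. Glomeruli came from wild-type Balb/c mice that had received 2 mg of rabbit IgG by intraperitoneal injection. Control mice (n = 5) received preimmune IgG. Mice with membranous nephropathy (MN) received IgG against THSD7A, a podocyte membrane protein that is a target antigen of human MN, and were sampled at day 1 (n = 4) or day 5 (n = 4). Control mice from both days form 1 group, and the day of each was not given in the sources used here. The study kept to male mice in the MN model and called the animals independent. Its methods give an age for the knockout and littermate mice injected in the same way, and none separately for these wild-type mice. The model is a passive transfer of rabbit antibody, no group carried a deleted gene or transgene, and both MN groups were set against the same 5 control libraries.

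Notch receptors are single-pass membrane proteins that bind Jagged and Delta-like ligands on a neighbouring cell. Binding exposes the receptor to cleavage by ADAM10 and then by γ-secretase, which frees an intracellular domain that joins the DNA-binding protein RBPJ and switches on Hes and Hey genes, themselves transcriptional repressors. In the kidney *Notch2* is known for its role in forming the proximal nephron and podocytes, *Notch1*, *Notch4* and *Dll4* for vessel formation in endothelium, and *Notch3* for vascular smooth muscle and mural cells. Notch activity is low in mature podocytes and is known to rise in several glomerular diseases.

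Of the 10 genes, *Notch2* alone passed an adjusted p of 0.05 in a comparison, at day 5, when 6.12% of all tested genes did. It fell by 25.1% at day 5, and the day 5 and control libraries did not overlap. *Hes1* had a day 5 level above the control level by 0.35 on the log2 scale and did not pass. No member passed at day 1, as 0.133% of all genes did. Without control replicate 5 no member passed either, while 284 of 14257 genes did. Outside the 10 genes, *Lfng* and *Adam10*, which encode a glycosyltransferase and a protease that act on Notch receptors, rose at day 5, and *Mib2*, which encodes a ubiquitin ligase for Notch ligands, fell. They were 3 of 41 further pathway genes tested, a share near the 6.12% of all tested genes.

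The tissue label was checked against marker genes. The podocyte marker *Nphs1* (556 to 884 TPM), the endothelial markers *Pecam1* (415 to 606 TPM) and *Cdh5* (225 to 326 TPM) and the mesangial markers *Pdgfrb* (198 to 313 TPM) and *Itga8* (298 to 481 TPM) were present in every library. So were the proximal tubule markers *Slc34a1* (115 to 388 TPM) and *Lrp2* (6.60 to 27.3 TPM) and, at 1.30 to 4.93 TPM, the leukocyte marker *Ptprc*, and none of these defining markers was at 0 in a library. The 10 proximal tubule markers summed to 4134 to 7442 TPM at day 1 and 3033 to 3685 TPM at day 5. In controls the sum was 8518 TPM in replicate 5 and 2350 to 3950 TPM in the other libraries. Control replicate 5 had the lowest control value for 9 of the 10 Notch genes and the lowest of all 13 libraries for 7 of them. Day 5 replicate 3 had the highest day 5 value for 7 of them. Since TPM keep no read depth, values are given without a counting error.

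In control glomeruli the levels fell into several tiers. *Hes1*, *Notch4* and *Notch1* had means of 134, 133 and 132 TPM and overlapped. *Jag2*, *Notch3* and *Dll4* followed at 87.6, 74.2 and 68.3 TPM, with the range of *Jag2* below that of *Notch1*. *Jag1* (31.6 TPM) lay below *Dll4* in all 5 libraries without overlap and overlapped *Hey1* (25.1 TPM). *Notch2* (15.8 TPM) and *Heyl* (15.0 TPM) were lowest, overlapped each other, and *Notch2* did not overlap *Hey1*. At day 1 *Notch2* was the lowest of the 10 in every library, below *Heyl* without overlap. At day 5 *Hes1* was highest in every library without overlapping *Notch4*, and *Notch2* had the lowest mean, with a range that overlapped that of *Heyl*. These orders are descriptions and were not tested.

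**Figure D1:**
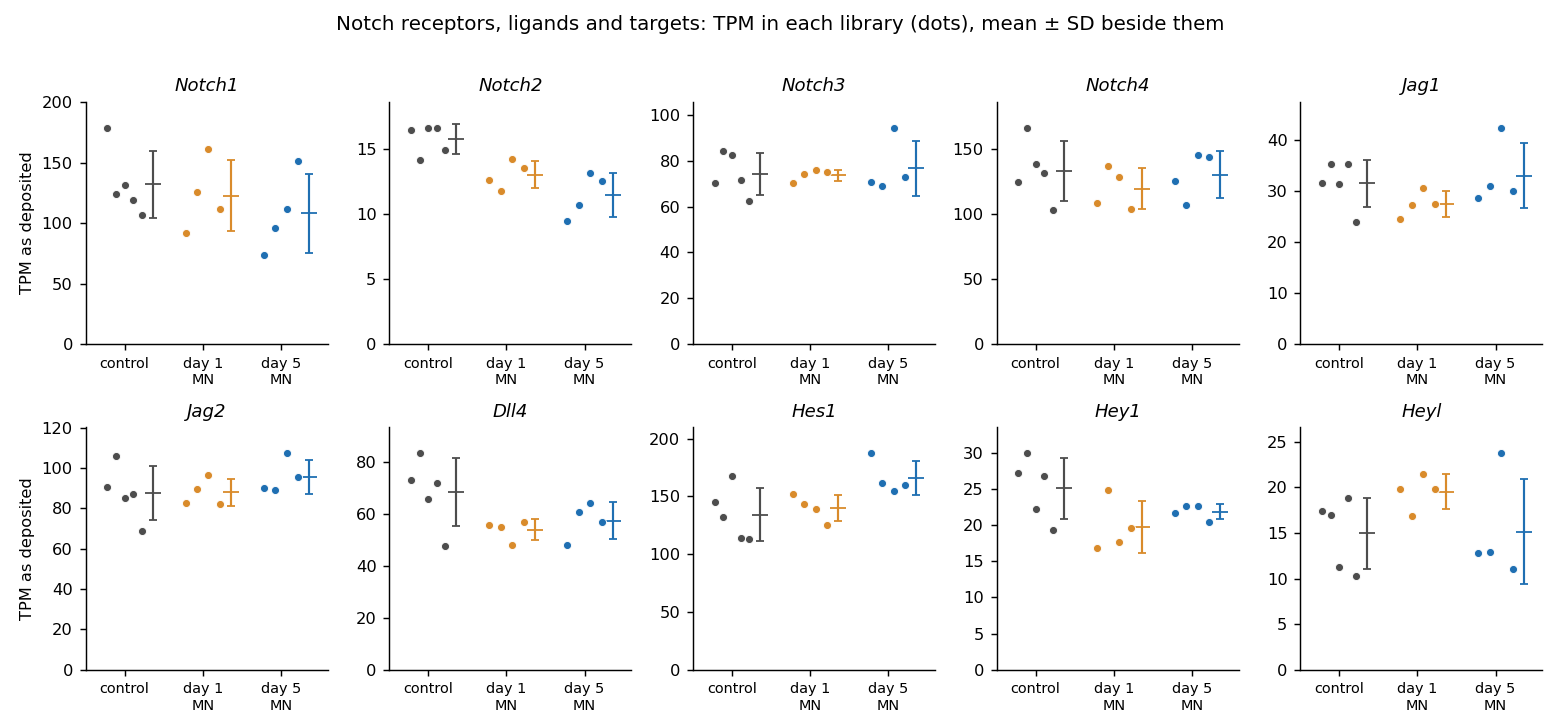
TPM as deposited (y axis, from 0) of each of the 10 Notch genes by group (x axis), with 1 dot per library in order of replicate number and the mean ± SD beside the dots (n = 5 control, 4 day 1 MN and 4 day 5 MN). All day 5 dots of *Notch2* (9.45 to 13.2 TPM) lie below the control dots (14.2 to 16.7 TPM), and the groups of the other 9 genes overlap between day 5 and control.

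Among the receptors, *Notch2* carried the one difference that passed. It stood at 16.5, 14.2, 16.7, 16.7 and 15.0 TPM in control replicates 1 to 5, at 12.6, 11.8, 14.3 and 13.6 TPM in day 1 replicates 1 to 4 and at 9.45, 10.7, 13.2 and 12.6 TPM in day 5 replicates 1 to 4. Every day 5 library was below every control library, and at day 1 only replicate 3 was within the control range. The means were 15.8 ± 1.16 TPM (SD, n = 5) in controls, 13.1 ± 1.07 TPM (n = 4) at day 1 and 11.5 ± 1.73 TPM (n = 4) at day 5. Fitted values are differences of log2 of the scaled TPM plus 0.5, which understates the change of low genes. At day 5 the log2 fold change against control was -0.42 (standard error, SE, 0.09, 95% interval -0.61 to -0.22, limma, Benjamini-Hochberg adjusted p = 0.0145). At day 1 it was -0.22 (interval -0.42 to -0.02, limma adjusted p = 0.354), and between the days it was -0.20 (limma adjusted p = 0.350). So the day 5 difference from control passed the threshold, and the difference between the days did not. Without day 5 replicate 1 the day 5 value was -0.35 (limma adjusted p = 0.0511) and without day 5 replicate 2 it was -0.40 (limma adjusted p = 0.0547). *Notch2* took 4.51% ± 0.61 of the summed TPM of the 4 receptors in controls, 4.02% ± 0.52 at day 1 and 3.53% ± 0.23 at day 5, with ranges that overlapped between groups.

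Some measured facts stand beside the fall of *Notch2*. Of 10 podocyte markers listed 9 were tested, of which *Synpo* (log2 fold change -0.46, adjusted p = 0.00197, limma) and *Cd2ap* (-0.29, limma adjusted p = 0.0117) also fell at day 5 while the other 7 did not pass, with *Nphs1* at -0.18. Over all tested genes, 6.12% passed at day 5, 1.99% downwards. Of the 9 markers 6 had a negative day 5 value, with a median of -0.24 and a lowest value of -0.60, in a marker that did not pass. The 9 podocyte markers summed to 6772 to 9150 TPM in controls, 7152 to 9080 TPM at day 1 and 7459 to 7819 TPM at day 5. In bulk glomerular RNA, fewer cells of a type and less RNA per cell cannot be told apart. The study counted podocytes by DACH1 staining and reported their number as unaltered in MN mice. The part of either in the fall of *Notch2* was not tested here. With a proximal tubule score as covariate, which was added after the data had been seen, the day 5 difference of *Notch2* was -0.42 (limma adjusted p = 0.0165), and without control replicate 5 it was -0.42 (limma adjusted p = 0.0288).

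*Notch2* lies on chromosome 3 of GRCm39 from 97920800 to 98057677 on the plus strand. Its annotated exons share 541 bases with the same-strand gene Gm42820, which is not among the listed symbols. As the one member that passed, it is shown here by the 250 bases before its start as given by RefSeq (GRCm38.p6, plus strand, chr3:98013288-98013537). Capitals mark matches, on either strand, to 3 motifs of the pathway. The core of the RBPJ site reads GTGGGAA on its own strand, or TTCCCAC where the site lies on the other. Hes and Hey repressors bind an E-box, which reads CACGTG on both strands, and an N-box, which reads CACNAG on its own strand, or CTNGTG where the box lies on the other.
Notch2: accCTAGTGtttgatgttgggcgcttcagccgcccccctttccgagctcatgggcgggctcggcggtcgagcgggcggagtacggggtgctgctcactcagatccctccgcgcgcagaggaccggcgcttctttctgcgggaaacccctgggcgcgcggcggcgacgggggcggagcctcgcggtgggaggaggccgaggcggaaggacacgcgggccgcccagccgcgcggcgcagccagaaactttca
The window holds 72.0% G and C, 1 N-box on the minus strand from 247 to 242 bases before the start, and no match to the RBPJ core or the E-box. Windows were at hand for 7 of the 10 members, not for *Hes1*, *Hey1* and *Heyl*, and 0 of these 7 hold the RBPJ core. Among all 32851 windows of this length, from 27025 genes, 5.42% hold the RBPJ core, 6.02% the E-box and 36.7% the N-box. A match describes the letters of the window only.

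*Notch1*, the receptor with a major part in endothelium, varied most among the receptors. Its control values were 179, 124, 132, 119 and 107 TPM, its day 1 values 91.9, 125, 162 and 112 TPM and its day 5 values 73.9, 95.8, 112 and 152 TPM. Control replicate 1 and day 5 replicate 1 mark the ends of this range, and all 3 groups overlapped. The day 5 mean was 108 ± 32.8 TPM against 132 ± 27.8 TPM in controls, and the log2 fold change was -0.28 with an interval of -0.70 to 0.14 (limma adjusted p = 0.479). At day 1 it was -0.07 (interval -0.49 to 0.35).

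*Notch3*, the receptor of mural cells, stood at 70.1, 84.2, 82.3, 71.8 and 62.5 TPM in controls, 70.3, 74.0, 75.8 and 74.9 TPM at day 1 and 70.5, 69.0, 94.5 and 72.7 TPM at day 5. Day 5 replicate 3 was above all other libraries, and the other day 5 values lay within the control range. The log2 fold change was 0.04 at day 1 (interval -0.14 to 0.23) and 0.08 at day 5 (interval -0.11 to 0.26). *Notch4*, an endothelial receptor, stood at 125, 166, 138, 131 and 103 TPM in controls, 109, 136, 128 and 103 TPM at day 1 and 125, 107, 145 and 143 TPM at day 5, and the groups overlapped throughout. Its log2 fold changes were -0.10 at day 1 (interval -0.36 to 0.16) and 0.01 at day 5 (interval -0.25 to 0.27). The day 5 value of *Notch4* turned negative with TPM as deposited (-0.02) and with quantile normalization (-0.01). *Notch1* lies on chromosome 2 of GRCm39 from 26347915 to 26406675 (minus strand). *Notch3* (minus strand, from 32339794 to 32385893) and *Notch4* (plus strand, from 34783220 to 34807477) both lie on chromosome 17.

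No ligand passed in a comparison. *Dll4*, the Delta-like ligand of endothelium, stood at 72.9, 83.3, 65.7, 72.0 and 47.6 TPM in controls, 55.8, 55.0, 48.0 and 56.9 TPM at day 1 and 48.0, 60.7, 64.2 and 56.7 TPM at day 5. Control replicate 5 was the lowest library of all, and the other control libraries were above every day 1 and day 5 library. The mean was 68.3 ± 13.2 TPM (SD, n = 5) in controls, 53.9 ± 4.03 TPM at day 1 and 57.4 ± 6.999 TPM at day 5 (n = 4 each). The log2 fold change was -0.27 at day 1 (SE 0.12, limma, Benjamini-Hochberg adjusted p = 0.392) and -0.20 at day 5 (interval -0.46 to 0.07, limma adjusted p = 0.412). Without control replicate 5, the library highest in proximal tubule markers, these values were -0.38 (limma adjusted p = 0.0532) and -0.31 (limma adjusted p = 0.0789). With the proximal tubule score as covariate they were -0.06 and -0.19. *Dll4* made up 32.7% ± 1.76 of the summed TPM of *Jag1*, *Jag2*, *Dll1* and *Dll4* in controls, 28.1% ± 3.32 at day 1 and 27.7% ± 1.76 at day 5. By library this share was 29.8% to 34.1% in controls, 23.5% to 30.9% at day 1 and 25.8% to 30.05% at day 5, so the ranges overlapped narrowly.

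*Jag2*, a Jagged ligand, took the largest share of that sum, 42.2% ± 1.23 in controls, 45.6% ± 1.23 at day 1 and 46.2% ± 1.79 at day 5. By library it took 40.2% to 43.4% in controls, 44.6% to 47.2% at day 1 and 44.2% to 48.5% at day 5. The MN ranges lay above the control range, a description of a ratio that was not tested. In TPM *Jag2* stood at 90.7, 106, 85.4, 87.0 and 68.8 in controls, 82.9, 89.8, 96.7 and 82.4 at day 1 and 90.1, 89.3, 107 and 95.4 at day 5, and the groups overlapped. Its log2 fold change was 0.06 at day 1 (interval -0.13 to 0.25) and 0.17 at day 5 (interval -0.02 to 0.36, limma adjusted p = 0.312). *Jag1*, the Jagged ligand best known from bile duct and vessel development, stood at 31.6, 35.4, 31.4, 35.4 and 24.0 TPM in controls, 24.5, 27.4, 30.6 and 27.5 TPM at day 1 and 28.7, 31.0, 42.5 and 30.1 TPM at day 5. Day 5 replicate 3 was again above all other libraries. The log2 fold change of *Jag1* was -0.14 at day 1 (interval -0.39 to 0.10), 0.10 at day 5 (interval -0.15 to 0.34) and 0.24 between the days (interval -0.02 to 0.50). Without day 5 replicate 3 the day 5 value was -0.0049 and that between the days was 0.14. *Dll4* and *Jag1* lie on chromosome 2 of GRCm39, from 119156170 to 119166443 (plus strand) and from 136923373 to 136958693 (minus strand), and *Jag2* lies on chromosome 12 from 112871421 to 112893437 (minus strand).

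No target gene passed in a comparison. *Hes1*, a repressor induced by Notch and by other signals, stood at 145, 132, 167, 114 and 113 TPM in controls, 152, 144, 139 and 125 TPM at day 1 and 187, 162, 155 and 159.9 TPM at day 5. Every day 5 library was above every day 1 library in deposited TPM, and control replicate 3 was within the day 5 range. The means were 134 ± 22.8 TPM (SD, n = 5), 140.0 ± 11.03 TPM and 166 ± 14.5 TPM (n = 4 each). The day 5 log2 fold change was 0.35 (SE 0.11, interval 0.11 to 0.59, limma, Benjamini-Hochberg adjusted p = 0.0888). That did not pass, and without control replicate 3 it was 0.43 (limma adjusted p = 0.0258), the only one of 24 alternatives in which *Hes1* passed. At day 1 the value was 0.12 (interval -0.12 to 0.36), and between the days it was 0.23 (interval -0.02 to 0.49, limma adjusted p = 0.369).

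*Hey1*, a repressor of the same family that acts in vessels and heart, stood at 27.2, 29.9, 22.2, 26.8 and 19.3 TPM in controls, 16.8, 24.8, 17.6 and 19.6 TPM at day 1 and 21.7, 22.6, 22.6 and 20.4 TPM at day 5. All MN libraries lay below the 3 highest control libraries and overlapped the other control libraries. Its log2 fold change was -0.29 at day 1 (interval -0.57 to -0.02, limma adjusted p = 0.380) and -0.15 at day 5 (interval -0.42 to 0.13). With the proximal tubule score as covariate the day 1 value was -0.10. *Heyl*, a further member of that family, stood at 17.4, 17.0, 11.2, 18.8 and 10.3 TPM in controls, 19.9, 16.9, 21.5 and 19.8 TPM at day 1 and 12.8, 12.9, 23.7 and 11.1 TPM at day 5. At day 1, 3 of 4 libraries were above all control libraries, and at day 5 replicate 3 was above all other libraries while the other 3 lay within the control range. The log2 fold change of *Heyl* was 0.45 at day 1 (SE 0.21, limma adjusted p = 0.394), 0.03 at day 5 (interval -0.41 to 0.47) and -0.42 between the days (interval -0.89 to 0.04, limma adjusted p = 0.373). Without day 5 replicate 3 the value between the days was -0.63 (limma adjusted p = 0.134). *Hes1* lies on chromosome 16 of GRCm39 from 29882134 to 29886643 (plus strand), *Hey1* on chromosome 3 from 8726956 to 8732385 (minus strand) and *Heyl* on chromosome 4 from 123127349 to 123143682 (plus strand). Exons of *Notch1*, *Notch3*, *Notch4*, *Jag1*, *Dll4*, *Hes1* and *Hey1* overlap annotated genes on the opposite strand, and whether strand was used in the quantification is not given in the sources used here, so reads of such pairs may not be told apart.

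**Figure D2:**
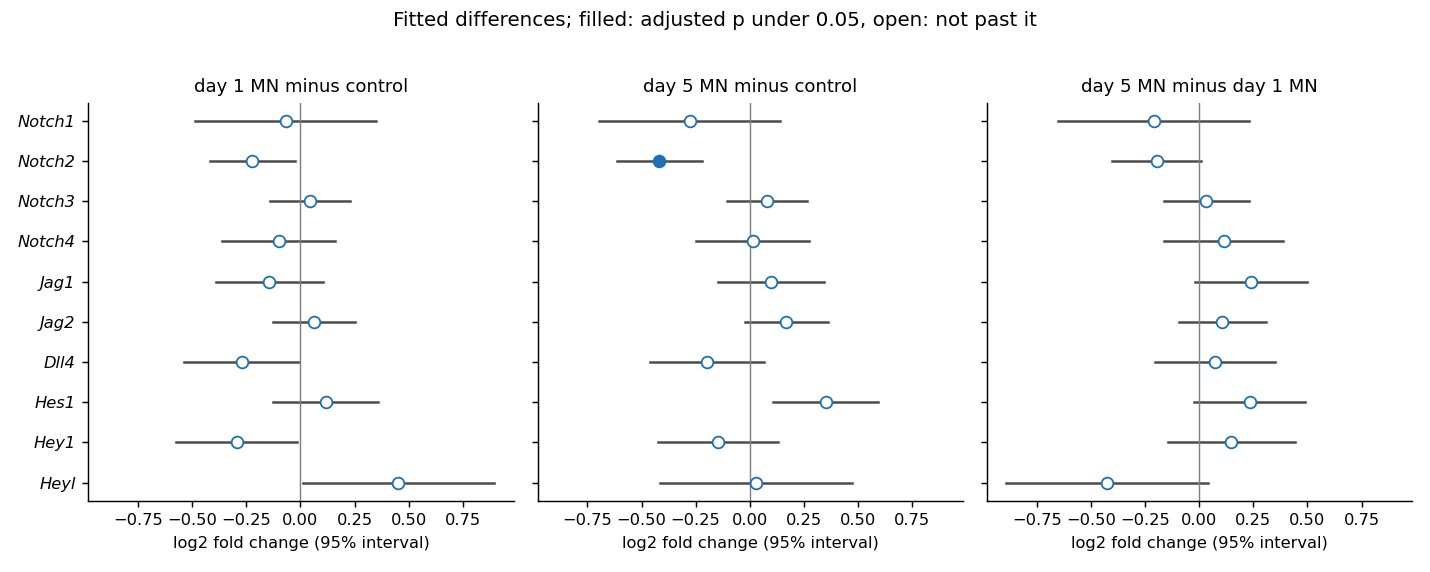
Fitted log2 fold change (x axis) of the 10 Notch genes (y axis) for day 1 MN minus control, day 5 MN minus control and day 5 minus day 1 MN, with 95% intervals as bars and a filled point where the limma adjusted p was under 0.05. Only *Notch2* at day 5 (-0.42) has a filled point, and the intervals of *Notch1* and *Heyl* are the widest.

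Counted as a list, the members were read against all genes tested. At day 1, 0 of 10 members passed an adjusted p of 0.05 in limma and 4 had an unadjusted p under 0.05 (*Notch2*, *Dll4*, *Hey1* and *Heyl*). Of all tested genes 0.133% passed the adjusted p, 12.6% had an unadjusted p under 0.05 and 0.0908% were also past a log2 fold change of 0.5. The first of these shares depends on control replicate 5. At day 1, 19 genes passed with all libraries, 284 of 14257 without that library and 5 to 31 without any other. With the proximal tubule score as covariate 0 passed, and no member passed in any of these fits. Of the log2 fold changes at day 1, 4 were positive and 6 negative, with a median of -0.08 against -0.0029 over all genes. No member had groups without overlap at day 1, as 3.5% of all genes had. At day 5, 1 of 10 members passed, downwards, and 2 had an unadjusted p under 0.05 (*Notch2* and *Hes1*), against 6.12% of all genes that passed, 4.13% upwards and 1.99% downwards, and 20.1% with an unadjusted p under 0.05. None was past both the adjusted p and the fold threshold, as 3.21% of all genes were. Of the 10, 1 (*Notch2*) had groups without overlap, against 10.7% of all genes. A single call among 10 genes is near that background. The day 5 log2 fold changes were positive for 6 members and negative for 4, with a median of 0.02, and with TPM as deposited those of *Notch4* and *Heyl* turned negative, as did that of *Notch4* with quantile normalization. Between day 5 and day 1 MN, 0 of 10 members passed in limma and 0 had an unadjusted p under 0.05, against 2.38% of all genes past the adjusted p, 15.5% with an unadjusted p under 0.05, 1.81% past both thresholds and 10.6% with groups that did not overlap. Of those differences 7 were positive and 3 negative, with a median of 0.09.

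The wider pathway was read from a list of 49 further genes, of which 41 were tested and 8 (*Dll3*, *Dner*, *Neurl1a*, *Dtx1*, *Hes2*, *Hes3*, *Hes5* and *Helt*) were below the level filter. At day 1 none of the 41 passed in limma, as 0.133% of all genes did. An unadjusted p under 0.05 was seen in 8, against 12.6% of all genes. At day 5, 3 of 41 passed, 2 upwards and 1 downwards, against 6.12% of all genes, and 14 had an unadjusted p under 0.05, against 20.1% of all genes. The median log2 fold change of the 41 genes was -0.02 at day 1 and 0.04 at day 5. For 6 of the 41 genes, against 10.7% of all genes, the day 5 and control libraries did not overlap, upwards for *Dlk1*, *Lfng*, *Adam10* and *Nrarp* and downwards for *Rbpj* and *Mib2*. At day 1 *Rbpj* alone had groups that did not overlap, 1 of 41 against 3.5% of all genes. Between the days 1 of 41 passed in limma (*Adam10*, upwards), against 2.38% of all genes. An unadjusted p under 0.05 was seen in 6, against 15.5% of all genes. For 3 of 41 (*Adam10*, *Numb* and *Hey2*) the groups did not overlap, against 10.6% of all genes.

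*Lfng* (Lunatic fringe) encodes a glycosyltransferase that modifies Notch receptors and so changes which ligands they answer to. It stood at 61.0, 51.9, 55.8, 51.4 and 46.1 TPM in controls, 76.8, 72.8, 57.4 and 59.5 TPM at day 1 and 85.3, 77.1, 74.0 and 70.0 TPM at day 5. All day 5 libraries were above all control libraries, and of the day 1 libraries replicates 1 and 2 were above them. The means were 53.2 ± 5.56 TPM (SD, n = 5), 66.6 ± 9.62 TPM (n = 4) and 76.6 ± 6.50 TPM (n = 4). *Lfng* rose by 0.56 on the log2 scale at day 5 (SE 0.11, interval 0.32 to 0.79, limma, Benjamini-Hochberg adjusted p = 0.00727), and at day 1 the value was 0.36 (limma adjusted p = 0.246). It was the one pathway gene past both thresholds at day 5, and without day 5 replicate 1 its value was 0.49, under the fold threshold. Of the 6 genes for receptor modification listed, the other fringe genes *Mfng* (-0.20) and *Rfng* (-0.01) did not pass at day 5, and *Furin*, the protease that matures the receptor and the most abundant of this list, stood at 83.9, 88.1 and 90.2 TPM in the 3 groups.

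*Lfng* lies on chromosome 5 of GRCm39 from 140593075 to 140601300 on the plus strand. Its RefSeq window (GRCm38.p6, plus strand, chr5:140607091-140607340) is printed for comparison with that of *Notch2*, with the same motifs in capitals, and was chosen after its values were seen.
Lfng: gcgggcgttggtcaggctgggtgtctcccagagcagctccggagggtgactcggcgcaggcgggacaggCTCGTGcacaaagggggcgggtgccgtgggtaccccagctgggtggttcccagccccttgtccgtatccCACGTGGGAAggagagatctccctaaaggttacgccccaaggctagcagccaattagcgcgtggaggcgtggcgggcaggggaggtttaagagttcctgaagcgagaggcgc
This window holds the RBPJ core GTGGGAA from 109 to 103 bases before the start, overlapped by the E-box CACGTG from 112 to 107, and an N-box on the minus strand from 181 to 176. The *Notch2* window above holds neither of the first pair of motifs, and no comparison of the windows was tested. Windows of *Adam10*, *Mib2* and *Nrarp* were read in the same way. None of these holds the RBPJ core, and those of *Adam10* and *Nrarp* hold an E-box.

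*Adam10* encodes the metalloprotease that makes the first ligand-induced cut of Notch receptors and also sheds other membrane proteins. It stood at 73.0, 72.7, 70.7, 70.0 and 66.2 TPM in controls, 73.0, 68.4, 70.9 and 69.8 TPM at day 1 and 82.0, 91.1, 87.6 and 82.5 TPM at day 5. Day 5 libraries lay above all others, and day 1 and control libraries covered nearly the same range. *Adam10* rose by 0.32 at day 5 (SE 0.05, limma, Benjamini-Hochberg adjusted p = 0.00128) and by 0.27 from day 1 to day 5 (limma adjusted p = 0.0103), while the day 1 value was 0.05 (interval -0.06 to 0.15). With the proximal tubule score as covariate the difference between the days was 0.25 (limma adjusted p = 0.0973). Of the 9 cleavage genes, 8 had a positive day 5 value, with a median of 0.10 against -0.0032 over all tested genes. None but *Adam10* passed, where 6.12% of all tested genes passed at day 5, 4.13% upwards. *Psenen*, a subunit of γ-secretase and the most abundant of them, had a day 5 value of 0.02 (interval -0.10 to 0.14). *Aph1b* and *Aph1c*, further subunits, are near-identical copies whose reads may be divided between them. *Adam10* lies on chromosome 9 from 70586221 to 70687511 (plus strand).

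*Mib2* (Mindbomb 2) encodes a ubiquitin ligase that promotes endocytosis of Notch ligands in the cell that presents them. It stood at 92.1, 111, 99.8, 91.5 and 89.7 TPM in controls, 72.6, 82.9, 96.8 and 77.5 TPM at day 1 and 75.4, 67.3, 72.4 and 78.0 TPM at day 5. The day 5 libraries lay below all control libraries, and day 1 replicate 3 was within the control range. *Mib2* fell at day 5, with a log2 fold change of -0.36 (SE 0.08, limma, Benjamini-Hochberg adjusted p = 0.0166). Without day 5 replicate 2 the value was -0.33 (limma adjusted p = 0.0689) and without day 5 replicate 3 it was -0.33 (limma adjusted p = 0.0534). The related ligase gene *Mib1* had a day 5 value of -0.06 (interval -0.24 to 0.12). *Mib2* lies on chromosome 4 from 155738781 to 155753951 (minus strand). Its exons share 158 bases with the opposite-strand gene Gm68131, so reads of this pair may not be told apart either.

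**Figure D3:**
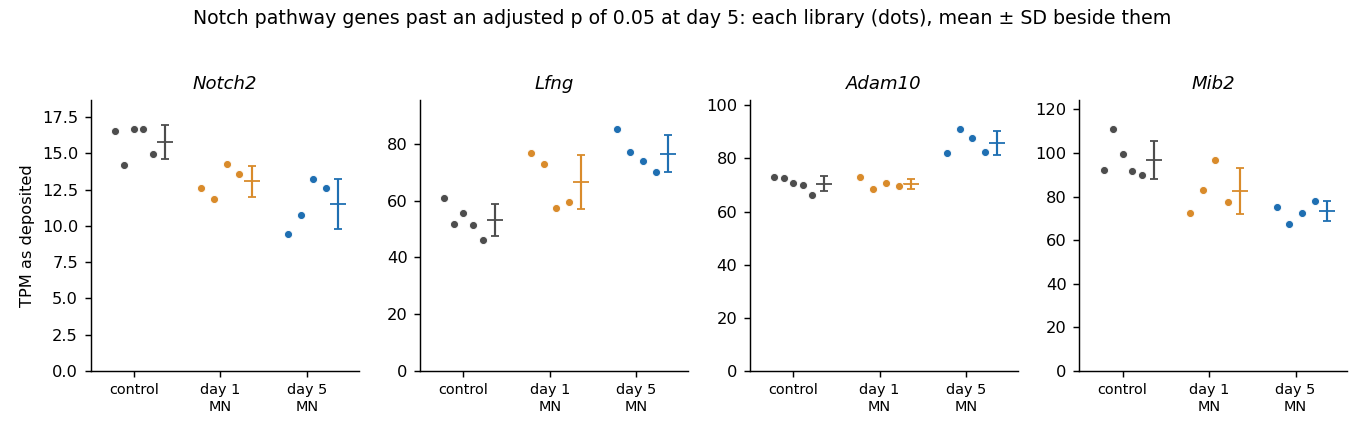
TPM as deposited (y axis, from 0) of *Notch2*, *Lfng*, *Adam10* and *Mib2*, the Notch pathway genes with an adjusted p under 0.05 at day 5 in limma, with 1 dot per library by group (x axis) and the mean ± SD beside them (n = 5, 4 and 4). Day 5 dots lie below the control dots for *Notch2* and *Mib2* and above them for *Lfng* and *Adam10*, and the day 1 dots of *Adam10* (68.4 to 73.0 TPM) cover nearly the same range as its control dots (66.2 to 73.0 TPM).

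The nuclear genes of the pathway had 0 of 9 members past the adjusted p at day 5 in limma, against 6.12% of all genes. An unadjusted p under 0.05 was seen in 5, against 20.1% of all genes. *Rbpj*, which encodes the DNA-binding partner of cleaved Notch, stood at 27.0, 26.7, 27.8, 27.4 and 26.5 TPM in controls, 24.9, 24.4, 25.4 and 23.7 TPM at day 1 and 23.2, 25.0, 25.0 and 24.4 TPM at day 5. All 8 MN libraries were below all control libraries. The fitted differences were small, -0.09 at day 1 (interval -0.20 to 0.02) and -0.11 at day 5 (interval -0.22 to -0.01, limma adjusted p = 0.222).

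Negative regulators had 0 of 8 tested members past the adjusted p at day 5 in limma, against 6.12% of all genes. An unadjusted p under 0.05 was seen in 2, against 20.1% of all genes. *Nrarp*, which encodes an ankyrin-repeat inhibitor that is itself a Notch target, stood at 12.8, 11.3, 9.43, 12.1 and 7.56 TPM in controls, 14.1, 10.8, 13.05 and 13.9 TPM at day 1 and 14.6, 13.5, 18.7 and 12.8 TPM at day 5. All day 5 libraries were above all control libraries, replicate 4 by a narrow margin. The day 5 value of *Nrarp* was 0.51 (interval 0.21 to 0.82, limma adjusted p = 0.0506), so that it missed the threshold narrowly. *Numb*, an endocytic inhibitor of the receptor and the most abundant of the pathway genes listed, stood at 231 ± 24.7 TPM in controls, 231 ± 18.0 TPM at day 1 and 268 ± 10.2 TPM at day 5 (SD), with a day 5 value of 0.25 (limma adjusted p = 0.0542). Of the other ligands, *Dlk1*, which encodes a non-canonical Delta-like protein, stood at 101 to 117 TPM in controls, 32.3 to 125 TPM at day 1 and 122 to 169 TPM at day 5 (day 5 value 0.51, interval -0.13 to 1.15). Of the other Hes and Hey genes 3 of 7 were tested and 0 passed in limma, where 6.12% of all genes passed at day 5. *Hes6*, the most abundant of them, had a day 5 value of 0.04 (interval -0.19 to 0.26).

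**Figure D4:**
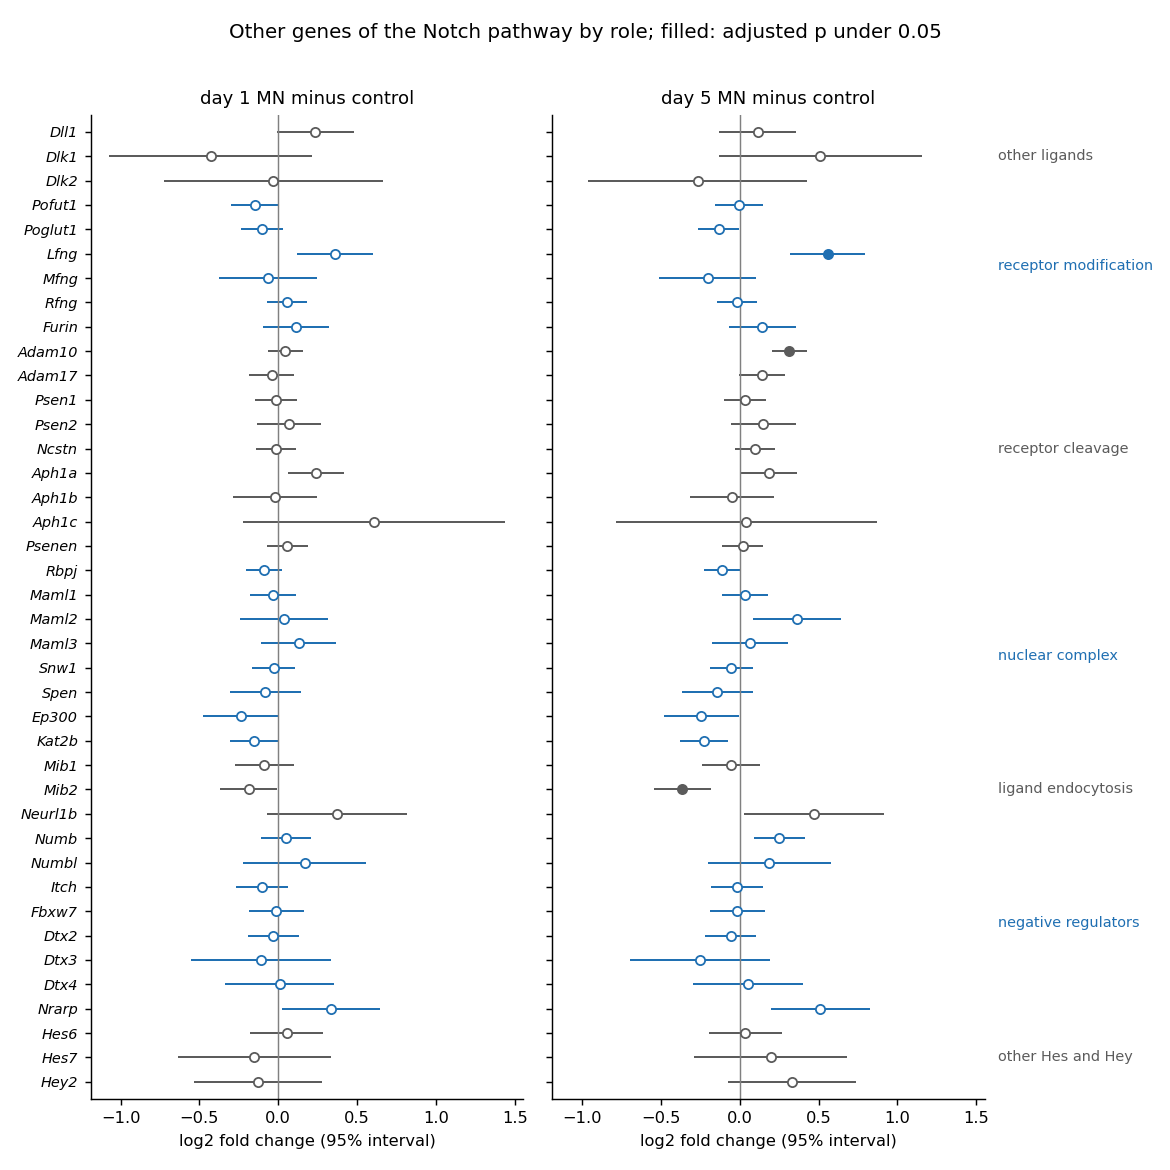
Fitted log2 fold change (x axis) with 95% intervals of all but 1 of the 41 tested genes of the wider Notch pathway (y axis), grouped by role, for day 1 MN minus control and day 5 MN minus control. Filled points have a limma adjusted p under 0.05 and are *Lfng* (0.56), *Adam10* (0.32) and *Mib2* (-0.36), all at day 5, and no point is filled at day 1.

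The genes whose pattern was most like that of *Notch2* over the 13 libraries were *Plce1* (Pearson r = 0.94), *Ntng2* (r = 0.93) and *Nek1* (r = 0.92). These are descriptions over all 14322 tested genes, the libraries share the group differences, and after subtracting group means r was 0.82, 0.80 and 0.69. The mean TPM of *Plce1*, a phospholipase C gene known from inherited nephrotic syndrome, was 89.4 in controls, 66.2 at day 1 and 58.2 at day 5. That of *Ntng2*, a netrin-G gene, was 315, 261 and 219, and that of *Nek1*, a kinase gene, was 24.2, 18.9 and 15.7.

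Marker lists of the cell types that hold Notch genes were counted in the same fit. At day 5, 12 of 12 endothelial markers had a positive value (median 0.21) and *Emcn* rose (log2 fold change 0.29, limma adjusted p = 0.0127). Of the 6 arterial endothelial markers, 6 were positive and *Sox17* rose (0.34, limma adjusted p = 0.0403). Endothelial markers summed to 6709 to 9017 TPM in controls, 7178 to 8627 TPM at day 1 and 8386 to 8753 TPM at day 5. Of 11 mesangial and mural markers *Tagln* rose (1.30, limma adjusted p = 0.000639) and the others did not pass. Each of these 3 lists thus had 1 marker past the adjusted p, where 6.12% of all tested genes passed at day 5, 4.13% upwards. At day 1, 10 of 10 proximal tubule markers and 7 of 7 tested distal tubule and collecting duct markers were positive (medians 0.73 and 0.61). Of these 0 passed in limma, as 0.133% of all genes did. An unadjusted p under 0.05 was seen in 8 and 4, against 12.6% of all genes. From day 1 to day 5 all of these markers had a negative value (medians -0.69 and -0.96). *Calb1* and *Aqp2*, 2 of the 7, were past both thresholds in limma, against 1.81% of all genes. The groups did not overlap for 6 of 10 and 6 of 7, against 10.6% of all genes. Leukocyte markers were low, with summed levels of 28.2 to 64.7 TPM over all libraries, and 0 of 6 tested passed at day 5 in limma, with 1 at an unadjusted p under 0.05, against 20.1% of all genes. The part of these cell types in the levels of the endothelial and mural Notch genes was not tested.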

How the data were processed

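Glomerular RNA of 13 mice was sequenced, and groups were taken from the sample labels. Per the labels, reads were checked with FastQC 0.11.9, trimmed with Trimmomatic 0.39 and quantified with kallisto 0.46.2 against GRCm39. The authors deposited TPM, 1 value per gene symbol and library, and how transcripts were summed to genes was not given in the sources used here. TPM keep no depth, so values carry no counting interval. Counts, on which the authors ran DESeq2, were not used here.

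Scaling used median-of-ratios factors between 0.955 and 1.04, computed over 15772 genes that no library lists at 0, and log2 values were formed after adding 0.5. Genes with at least 1 TPM in at least 4 libraries were tested over all 3 groups with limma 3.58.1 in R 4.3.3 (eBayes with trend), with Benjamini-Hochberg adjustment over 14322 genes. A gene passed at an adjusted p under 0.05 and was called when its absolute log2 fold change also exceeded 0.5. The procedure was run on simulated data with independent noise, where only the mean fitted size of the largest planted effects had to hold. That check sets no condition on how often smaller changes pass. The members and lists were chosen with earlier results of these data known.

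All 10 members were named, with the wider pathway genes that passed in a comparison, the most abundant gene of each role and the 3 genes most like a member that passed. Results of a few such genes and markers are left out of the text and plots. Further genes of the wider list were named where their groups did not overlap or as relatives of a gene that passed, after their values were seen. Gene positions are from GENCODE on GRCm39. Alternatives covered pseudocounts, scaling, filters, eBayes without trend, 2 groups in the fit, a replicate block, array weights, leaving out each library and, added after seeing the data, a proximal tubule score as covariate. Figures used matplotlib 3.10.9 (Python 3.11.15).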

Additional observations from a re-analysis of the deposited data

Results flagged for a closer look

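In each of 13 Notch genes and 3 groups, 39 in all, the library at either end was set against the rest of its group by Dixon's ratio (its gap to the nearest library over the range of the group). Chance alone gives about 1 in 20 such groups, and 3 of the 39 were flagged, near that share. All 3 flags fell on 1 library, day 5 replicate 3, and are not independent of each other. Its level of *Notch3*, the mural cell receptor, was 94.5 TPM where the other day 5 libraries had 69.0 to 72.7 TPM (ratio 0.853). Its level of the ligand *Jag1* was 42.5 TPM against 28.7 to 31.0 TPM (ratio 0.834), and that of the target gene *Heyl* was 23.7 TPM against 11.1 to 12.9 TPM (ratio 0.853). The 11 mesangial and mural markers summed to 2924 TPM in this library and to 2204 to 2510 TPM in the other day 5 libraries. The part of these cells in the 3 levels was not tested. The level of *Adam10*, the receptor-cleaving protease gene, was higher in day 5 than in day 1 MN libraries by 0.27 on the log2 scale ( limma, Benjamini-Hochberg adjusted p = 0.0103), with all 4 day 5 libraries above all 4 day 1 libraries. No controls matched by day entered this comparison. Proximal tubule markers summed to 4134 to 7442 TPM at day 1 and 3033 to 3685 TPM at day 5, and with their score as a covariate, added after the data had been seen, the difference was 0.25 and did not pass (limma, Benjamini-Hochberg adjusted p = 0.0973).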

How the results depend on the processing

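Each result was recomputed under 24 alternatives, 13 of which left out 1 library. *Notch2* passed at day 5 in 22 of them (-0.46 to -0.35, limma adjusted p 0.00695 to 0.0547), *Lfng* and *Adam10* in 24. With the replicate number as a replicate block, *Notch2* was -0.42 at day 5 (limma adjusted p = 0.0288) and *Mib2* missed at -0.38 (limma adjusted p = 0.0609), the only call the block changed. Only controls have a replicate 5, so that library did not enter the differences of this fit, as when it was left out. Over all tested genes, deviations of 12 same-numbered pairs correlated at -0.0563 to 0.0913, with 0 over 0.1. Such a correlation cannot show whether same-numbered libraries share a batch that acts on some genes only. Members past the adjusted p at day 5 numbered 1, and 0 to 2 when a library was left out, 0 without day 5 replicate 1 or 2 and 2 without control replicate 3. Wider pathway genes past both thresholds numbered 1, and 0 to 2 when a library was left out (0 without day 5 replicate 1, 2 without control replicate 1, day 1 replicate 4 or day 5 replicate 4). They numbered 2 with quantile normalization (with *Nrarp*), with the 2 compared groups (with *Dlk1*) and with the proximal tubule covariate (with *Nrarp*). No member was past both thresholds under any of the 24.

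Directions turned for member values that passed nowhere, and the cause was not tested. With the proximal tubule covariate the day 1 values were 0.14 for *Notch1*, 0.096 for *Notch4* and 0.017 for *Jag1*, and the values between the days were -0.13 for *Dll4*, -0.031 for *Hey1*, -0.077 for *Jag2*, -0.043 for *Notch3* and -0.072 for *Notch4*. With TPM as deposited they were -0.0049 for *Heyl* at day 5, -0.00095 for *Notch3* at day 1 and -0.022 for *Notch4* at day 5, where quantile normalization gave -0.010. The replicate block gave -0.078 for *Heyl* and -0.061 for *Notch4* at day 5 and -0.0080 for *Jag2* and -0.0011 for *Notch3* at day 1, and array weights gave -0.057 for *Heyl* at day 5. Leaving out 1 library gave ranges at day 1 of -0.20 to 0.060 for *Notch1*, -0.00020 to 0.084 for *Notch3* and -0.0071 to 0.13 for *Jag2*. At day 5 the ranges were -0.0023 to 0.12 for *Notch3*, -0.062 to 0.096 for *Notch4*, -0.0049 to 0.15 for *Jag1* and -0.18 to 0.16 for *Heyl*, and between the days -0.047 to 0.072 for *Notch3*. Of 39 values of 13 genes, 21 kept direction and side of the threshold throughout.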
